A study of Rattus norvegicus with 6 samples.

Results

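The 10 genes described here mark osteoclasts or belong to the RANK system that controls the formation of these cells. They were taken by name from a table of read counts for 30562 rat genes, and each name matched 1 gene. The genes are Tnfsf11, Tnfrsf11a, Tnfrsf11b, Nfatc1, Dcstamp, Ocstamp, Oscar, Calcr, Acp5 and Ctsk. RNA came from tail discs of male Sprague-Dawley rats, in which the disc between coccygeal vertebrae 6 and 7 had been injured with an 18 G needle at the age of 12 weeks. By the paper's account, each of 3 rats per group then received 10 μL in the disc 24 h after the injury, either phosphate-buffered saline (PBS) or AF-PTK@LEV@SPP1, and was followed for 8 weeks. AF-PTK@LEV@SPP1 is a liposome and outer membrane vesicle hybrid with an annulus-binding peptide, and it carried siRNA against Spp1 at 1 mg/kg. Both groups had the injury, and no uninjured disc was analysed here. The sample records differ from this account, since they name an untreated control, a treatment time of 14 days, macrophages sorted from the disc, and mice.

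Osteoclasts are large cells with several nuclei that arise by fusion of precursors of the monocyte lineage and resorb bone and mineralised cartilage. Their formation needs the ligand RANKL (Tnfsf11), which stromal cells, osteoblasts, chondrocytes and lymphocytes make, and its receptor RANK (Tnfrsf11a) on the precursor, while the secreted decoy receptor osteoprotegerin (OPG, Tnfrsf11b) binds RANKL and blocks it. RANK signals through NF-κB and AP-1 to the transcription factor NFATc1, which switches on genes of fusion (Dcstamp, Ocstamp) and of resorption (Acp5, Ctsk). In the disc and its endplates, osteoclasts are known mainly from remodelling of the bony and calcified parts.

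The libraries held 17942989, 16565291 and 17489851 counts for PBS replicates 1, 2 and 3, and 17074981, 15560728 and 17855184 for replicates 1, 2 and 3 of AF-PTK@LEV@SPP1. A gene with 3 counts stood at 0.167 to 0.193 CPM (counts per 1000000 counts of a library), a floor that covers counting error alone. Levels below are normalized CPM, that is, CPM after scaling of the libraries by the trimmed mean of M-values (TMM). Exon lengths were not used, so levels are compared between libraries and not between genes, except that the gene with the most reads in each marker list is named. Where 3 values are given for a group, they are in the order of replicates 1, 2 and 3.

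Spp1 codes for osteopontin, a bone matrix protein that osteoclasts also make, and is the target of the siRNA, which the methods describe as designed for the mouse gene. It stood at 8228, 4501 and 4499 normalized CPM in the PBS libraries (replicates 1 to 3 in order) and at 8151, 6961 and 8543 in the AF-PTK@LEV@SPP1-labelled libraries. Under the label of the treatment Spp1 was therefore not lower (log2 fold change 0.31, SE 0.37, edgeR's Benjamini-Hochberg adjusted p = 0.628). Its log2 fold change was 0.81 without PBS replicate 1. Without PBS replicates 2 and 3, an alternative chosen after seeing the data, it was -0.066. The data do not show the knockdown that the label names, and every direction below is relative to the labels.

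PBS replicates 2 and 3 differed by little more than sampling noise. Their counts varied 1.33 times as much as counting alone over 14393 genes, and 16 genes (0.111%) differed, against 51.3 to 107 times and 39.5% to 56.6% in the 5 other pairs within a group. The 2 libraries were therefore summed and counted as 1 sample, which left n = 2 distinct samples of PBS and n = 3 of AF-PTK@LEV@SPP1. PBS replicate 1 stood apart from this pair in many genes of bone, marrow and fat, given further on. The p-values measure the spread between these samples.

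The 10 genes all passed the filter on low counts, and edgeR's quasi-likelihood test was run on 15537 genes. A gene was called where its p, adjusted by Benjamini-Hochberg over the genes tested, was under 0.05 and its log2 fold change was above 1 in size. Of the 10 genes, 4 were called lower in the AF-PTK@LEV@SPP1-labelled libraries (Tnfsf11, Dcstamp, Ctsk and Acp5), against 314 of all genes tested (2.02%). None of the 10 was called higher by edgeR, against 138 of all genes tested (0.888%). An unadjusted p under 0.05 was found for 8 of the 10, 7 of them lower and 1, Tnfrsf11b, higher, against 3941 of all genes tested in either direction (25.4%). DESeq2 called 7 of the 10 lower and 1, Tnfrsf11b, higher, against 4.42% and 4.46% of the 16230 genes with an adjusted p. Its added lower calls were Tnfrsf11a, Ocstamp and Oscar. By limma-voom, the same 4 genes as by edgeR were called lower and 0 were called higher, against 1.63% and 0.714% of all genes tested. The log2 fold change was negative for 9 of the 10 (against 45.8% of all genes tested) and had a median of -2.01, whereas the median over all genes tested was 0.046. For 8 of the 10 genes the groups did not overlap, which was also true of 45.7% of all genes tested. In bulk tissue, fewer cells of a type and less RNA per cell cannot be told apart.

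With the near-identical PBS libraries kept as 2 samples, 6 of the 10 genes were called lower (4.62% of 15042 genes tested) and 1 was called higher (4.21%). The added calls were Ocstamp and Tnfrsf11a, lower, and Tnfrsf11b, higher. Without PBS replicate 1, or without replicate 1 of AF-PTK@LEV@SPP1, 2 of the 10 genes were called lower (Tnfsf11 and Dcstamp), against 1.34% and 0.54% of all genes tested. The first of these fits has the near-identical pair as its single PBS sample, so its spread comes from the AF-PTK@LEV@SPP1-labelled libraries alone. Without replicate 2 or without replicate 3 of AF-PTK@LEV@SPP1, edgeR called 0 of the 10, and 0 genes in all, while 8 and 7 of the 10 had an unadjusted p under 0.05 in these fits, as had 20.4% and 17.7% of all genes tested. In an alternative chosen after seeing the data, PBS replicates 2 and 3 were both left out, which left 1 PBS sample, assumed to vary like the other group, and 1 of the 10 genes (Tnfsf11) was called lower, against 3 of all genes tested (0.0187%).

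**Figure D1:**
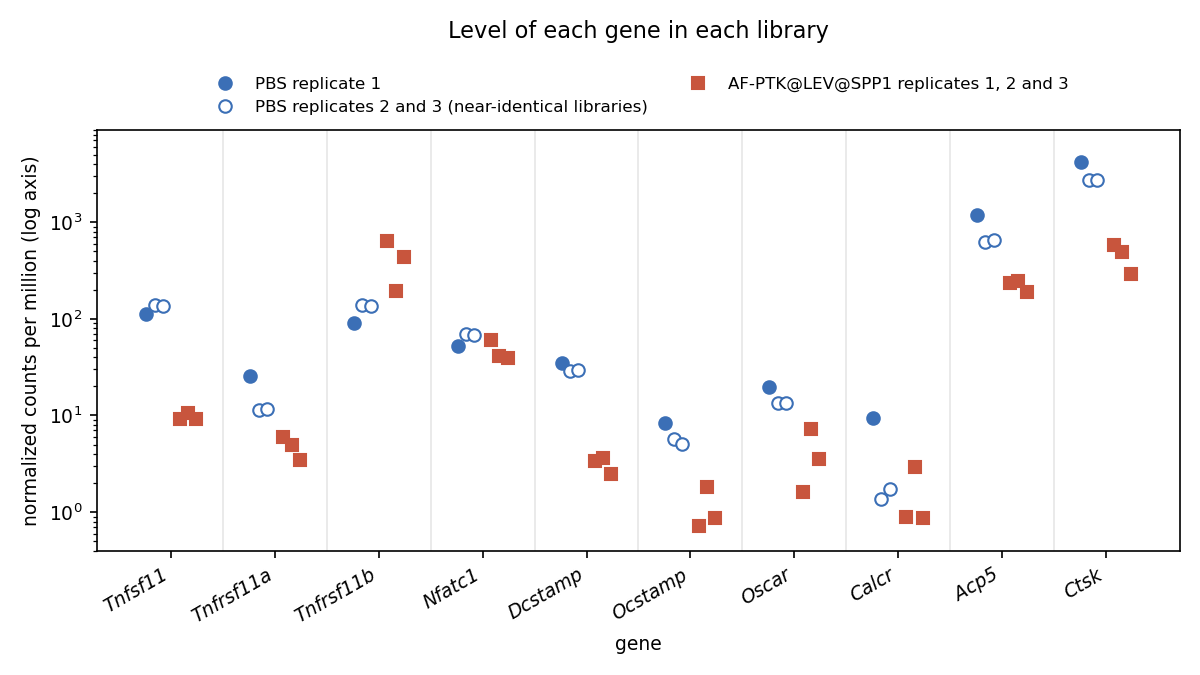
Normalized CPM (log axis) of the 10 genes in each of the 6 libraries, with PBS as circles (open for the near-identical replicates 2 and 3) and AF-PTK@LEV@SPP1 as squares. For Tnfsf11 the PBS libraries lie between 113 and 140 and the others between 9.09 and 10.6, whereas for Nfatc1 and Calcr the groups overlap.

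Tnfsf11, the gene of RANKL (ENSRNOG00000071047, chromosome 15), stood at 113, 140 and 137 normalized CPM in replicates 1, 2 and 3 of PBS. In replicates 1, 2 and 3 of AF-PTK@LEV@SPP1 it stood at 9.28, 10.6 and 9.09. The libraries within each group lay close together, though PBS replicates 2 and 3 are near-identical libraries, and the groups were far from overlapping. RANKL transcripts fell 13.0-fold in the AF-PTK@LEV@SPP1-labelled libraries (log2 fold change -3.70, SE 0.15, edgeR's Benjamini-Hochberg adjusted p = 0.00863). Of the 15537 genes tested, Tnfsf11 had the smallest p-value (rank 1). Its adjusted p was 0.0645 without replicate 2 and 0.127 without replicate 3 of AF-PTK@LEV@SPP1, at log2 fold changes of -3.77 and -3.65.

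The receptor RANK, coded by Tnfrsf11a, is carried by osteoclast precursors and osteoclasts. Tnfrsf11a stood at 25.9, 11.4 and 11.8 normalized CPM in the PBS libraries (replicates 1 to 3 in order) and at 5.95, 4.93 and 3.45 in the AF-PTK@LEV@SPP1-labelled libraries. PBS replicate 1 was the highest, and the groups did not overlap. The difference was not called with 5 distinct samples (log2 fold change -1.97, SE 0.41, 95% interval -3.01 to -0.92, edgeR's Benjamini-Hochberg adjusted p = 0.0691). With the 6 libraries kept, it was called (adjusted p = 0.0314 by the same test). On the 5 distinct samples DESeq2 also called it (DESeq2's adjusted p = 0.00053), and limma-voom did not (limma-voom's adjusted p = 0.112). Without the filter on low counts edgeR called it too (edgeR's adjusted p = 0.0499). Without PBS replicate 1 the log2 fold change was -1.28.

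Tnfrsf11b, the gene of the decoy receptor OPG, differed in the opposite direction. It stood at 89.6, 138 and 137 normalized CPM in the PBS libraries (replicates 1 to 3 in order) and at 633, 194 and 434 in replicates 1, 2 and 3 of AF-PTK@LEV@SPP1. Each AF-PTK@LEV@SPP1-labelled library lay above each PBS library, but these 3 libraries spread widely, with replicate 2 nearest to PBS. The log2 fold change was 1.89 (SE 0.55, 95% interval 0.49 to 3.28) and was not called with 5 distinct samples (edgeR's Benjamini-Hochberg adjusted p = 0.121). With the 6 libraries kept, the adjusted p of the same test was 0.0384. On the 5 distinct samples DESeq2 called it (DESeq2's adjusted p = 0.00547), and limma-voom did not (limma-voom's adjusted p = 0.113).

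Because RANKL and OPG bind each other, their balance was also taken within each library, as the log2 ratio of Tnfsf11 to Tnfrsf11b. The ratio was 0.33 in PBS replicate 1, 0.015 in replicate 2 and 0 in replicate 3, where both genes had 2209 counts. It was -6.07, -4.17 and -5.56 in replicates 1, 2 and 3 of AF-PTK@LEV@SPP1. The groups were separated by more than 4 log2 units. PBS replicate 1 and the summed near-identical pair (0.0073), the 2 distinct PBS samples, lay closer to each other than the AF-PTK@LEV@SPP1-labelled libraries. The mean ratio was 0.17 ± 0.23 (SD, n = 2) in PBS and -5.27 ± 0.99 (SD, n = 3) in the other group, a difference of -5.44, or 43.4-fold. The two-sided exact permutation test gave p = 0.1, the smallest value that 2 against 3 samples allow, and its Benjamini-Hochberg adjusted value over the 3 ratios planned was also 0.1. The ratio does not depend on how libraries were scaled. Since the transcripts differ in length, only its change between libraries carries meaning, not its value within one.

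**Figure D2:**
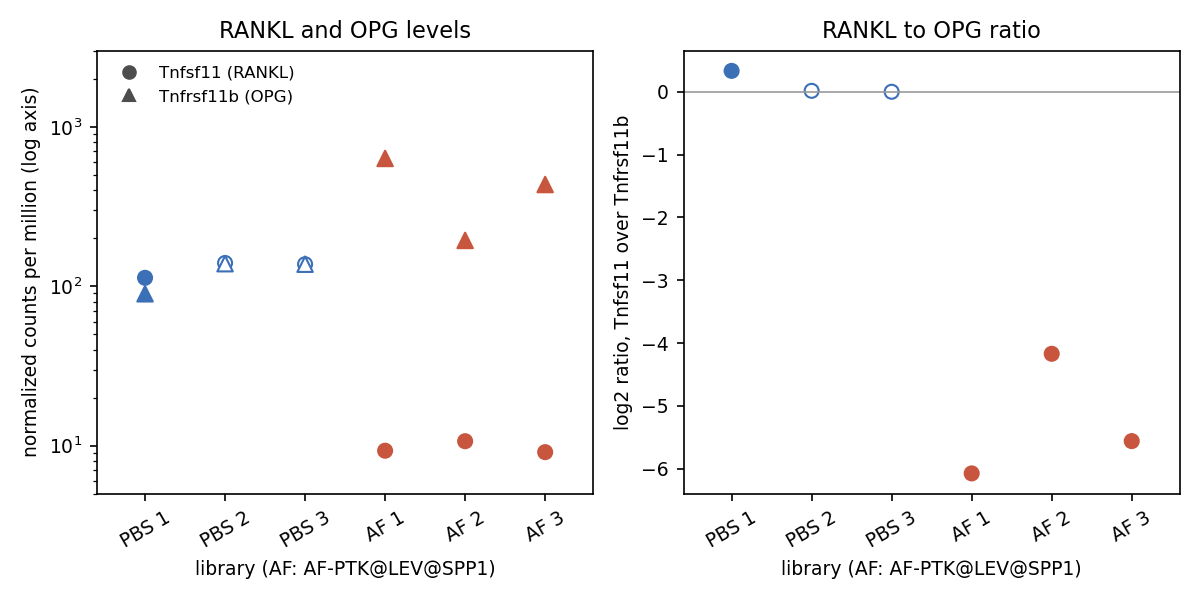
Left, normalized CPM (log axis) of Tnfsf11 (circles) and Tnfrsf11b (triangles) in each library, and right, the log2 ratio of Tnfsf11 to Tnfrsf11b, with PBS in blue (open symbols for the near-identical pair) and AF-PTK@LEV@SPP1 in red. The ratio lies between 0 and 0.33 in PBS and between -6.07 and -4.17 in the AF-PTK@LEV@SPP1-labelled libraries.

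Nfatc1, the transcription factor at the end of the RANK pathway, is also made by many other cells. It stood at 52.3, 69.6 and 68.4 normalized CPM in the PBS libraries (replicates 1 to 3 in order) and at 60.2, 40.9 and 39.2 in the AF-PTK@LEV@SPP1-labelled libraries. The groups overlapped, because replicate 1 of AF-PTK@LEV@SPP1 lay above PBS replicate 1. The log2 fold change of -0.38 (SE 0.24, 95% interval -0.98 to 0.23) was not called (edgeR's Benjamini-Hochberg adjusted p = 0.373). With all distinct samples, this interval leaves out a decrease of more than 1 log2 unit, whereas the called genes of this group were lower by at least 2 units. The size of the change depended on replicate 1 of AF-PTK@LEV@SPP1, without which the log2 fold change was -0.63. Without replicate 2 or replicate 3 of AF-PTK@LEV@SPP1 it was -0.28 and -0.26. Nfatc1 was not called in any of these fits.

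Dcstamp and Ocstamp code for membrane proteins that precursors need in order to fuse. Dcstamp (ENSRNOG00000004704, chromosome 7) stood at 35.2, 28.9 and 29.3 normalized CPM in the PBS libraries (replicates 1 to 3 in order) and at 3.39, 3.65 and 2.47 in the AF-PTK@LEV@SPP1-labelled libraries. As with RANKL, the spread within groups was small beside the gap between them. Dcstamp fell 10.1-fold (log2 fold change -3.34, SE 0.22, edgeR's Benjamini-Hochberg adjusted p = 0.0119). Its adjusted p rose to 0.0679 without replicate 2 and to 0.127 without replicate 3 of AF-PTK@LEV@SPP1, at log2 fold changes of -3.45 and -3.18.

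Ocstamp was measured from few reads, with 162, 87 and 82 counts in replicates 1, 2 and 3 of PBS, and 12, 30 and 15 counts in the AF-PTK@LEV@SPP1-labelled libraries. In normalized CPM these are 8.43, 5.71 and 5.10 against 0.714, 1.83 and 0.863. Every PBS library lay above every AF-PTK@LEV@SPP1-labelled library. The difference narrowly missed the call with 5 distinct samples (log2 fold change -2.60, SE 0.48, edgeR's Benjamini-Hochberg adjusted p = 0.0554). It was called with the 6 libraries kept (adjusted p = 0.0148 by the same test) and without the filter on low counts (edgeR's adjusted p = 0.0386). On the 5 distinct samples DESeq2 called it (DESeq2's adjusted p = 4.9e-05), and limma-voom did not (limma-voom's adjusted p = 0.0578).

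Oscar codes for a collagen-binding receptor that co-stimulates osteoclast precursors. It stood at 19.6, 13.5 and 13.4 normalized CPM in the PBS libraries (replicates 1 to 3 in order) and at 1.61, 7.30 and 3.57 in replicates 1, 2 and 3 of AF-PTK@LEV@SPP1. The groups did not overlap, but the AF-PTK@LEV@SPP1-labelled libraries spread several-fold, with replicate 2 the highest. The log2 fold change of -1.99 (SE 0.60) was not called (edgeR's Benjamini-Hochberg adjusted p = 0.129, and 0.0526 with the 6 libraries kept). Without replicate 2 of AF-PTK@LEV@SPP1 it was -2.66. In the table, Oscar overlaps Tfpt on the same strand, and reads from their shared part cannot be assigned with certainty.

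Calcr, the calcitonin receptor, marks mature osteoclasts and was the least stable of the 10 genes. It had 179, 21 and 28 counts in replicates 1, 2 and 3 of PBS, and 15, 48 and 15 in the AF-PTK@LEV@SPP1-labelled libraries, or 9.31, 1.38 and 1.74 normalized CPM against 0.893, 2.92 and 0.863. The groups overlapped, since replicate 2 of AF-PTK@LEV@SPP1 lay above PBS replicates 2 and 3. The log2 fold change of -1.79 (SE 0.91, 95% interval -4.10 to 0.52) was not called (edgeR's Benjamini-Hochberg adjusted p = 0.283). It rested on PBS replicate 1, without which it was -0.013, and without replicate 2 of AF-PTK@LEV@SPP1 it was -2.61. The genes of Mir489 and Mir653 lie within Calcr on the same strand.

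Acp5 and Ctsk code for enzymes with which osteoclasts break down bone, tartrate-resistant acid phosphatase (TRAP) and the collagen-cleaving protease cathepsin K. Acp5 (ENSRNOG00000046261, chromosome 8) stood at 1177, 631 and 654 normalized CPM in the PBS libraries (replicates 1 to 3 in order) and at 234, 248 and 189 in the AF-PTK@LEV@SPP1-labelled libraries. PBS replicate 1 was almost double the other PBS libraries, and the lowest PBS value was still more than double the highest value of the other group. Acp5 fell 4.07-fold (log2 fold change -2.02, SE 0.30, edgeR's Benjamini-Hochberg adjusted p = 0.0381). The call was lost without PBS replicate 1, where the log2 fold change was -1.53. It was also lost without replicates 1, 2 and 3 of AF-PTK@LEV@SPP1 in turn (adjusted p = 0.0814, 0.105 and 0.163 by the same test). The log2 fold changes of these last fits were -2.09, -2.10 and -1.91.

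Ctsk (ENSRNOG00000021155, chromosome 2) stood at 4143, 2756 and 2738 normalized CPM in replicates 1, 2 and 3 of PBS. It stood at 580, 490 and 289 in replicates 1, 2 and 3 of AF-PTK@LEV@SPP1. The groups were widely separated, with PBS replicate 1 again the highest. Ctsk fell 7.60-fold (log2 fold change -2.93, SE 0.38, edgeR's Benjamini-Hochberg adjusted p = 0.0306). The call was lost without PBS replicate 1 (adjusted p = 0.0689) and without replicates 1, 2 and 3 of AF-PTK@LEV@SPP1 in turn (adjusted p = 0.0611, 0.0983 and 0.136 by the same test), at log2 fold changes of -3.18 to -2.60.

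**Figure D3:**
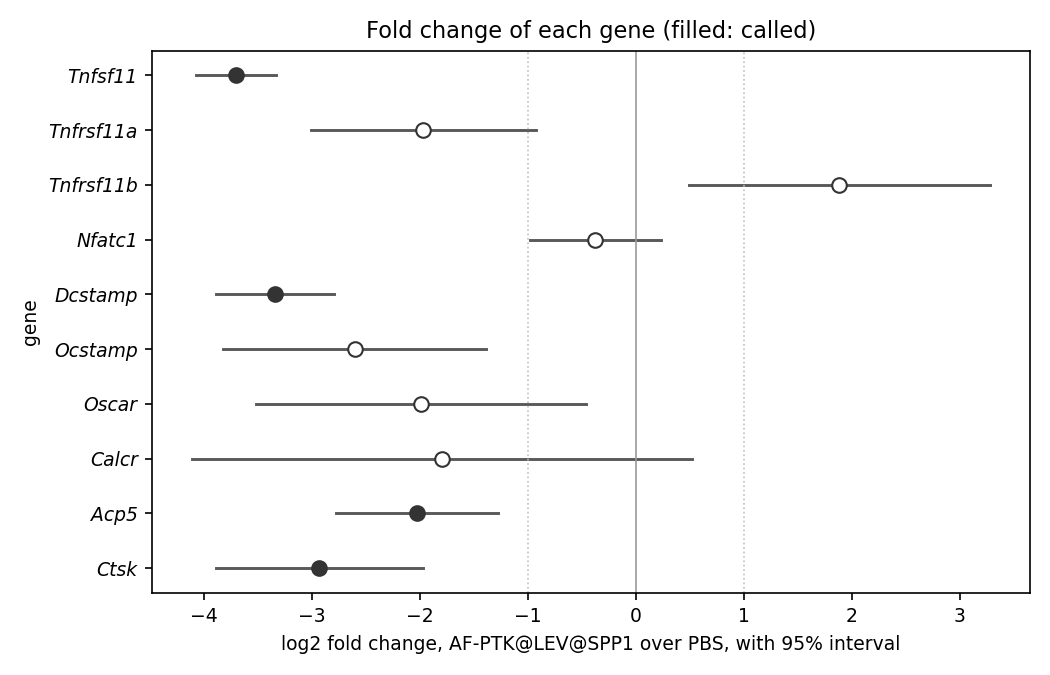
Log2 fold change of each of the 10 genes, AF-PTK@LEV@SPP1 over PBS, from edgeR on 5 distinct samples, with bars for the 95% interval, filled points for called genes and dotted lines at -1 and 1. Tnfsf11 (-3.70) and Dcstamp (-3.34) have the shortest intervals among the called genes, Calcr has the widest of the 10, and Tnfrsf11b (1.89) lies on the other side of 0.

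Acp5 and Ctsk are also made at lower levels by other cells of the monocyte lineage, in which Csf1r, the receptor of the growth factor M-CSF, is widely expressed. The log2 ratio of Acp5 to Csf1r was 2.15, 2.09 and 2.12 in replicates 1, 2 and 3 of PBS, and 1.15, 1.15 and 0.89 in the AF-PTK@LEV@SPP1-labelled libraries. PBS replicate 1 and the near-identical pair were almost level in this ratio. The difference was -1.07, or 2.10-fold (n = 2 against 3, two-sided exact permutation p = 0.1, the smallest possible). For Ctsk over Csf1r the log2 ratio was 3.97, 4.22 and 4.18 in PBS, and 2.46, 2.13 and 1.50 in the AF-PTK@LEV@SPP1-labelled libraries. This difference was -2.06, or 4.16-fold (n = 2 against 3, two-sided exact permutation p = 0.1, the smallest possible). As an alternative chosen after seeing the data, the mean log2 level of the 13 tested macrophage and monocyte markers, Csf1r included, took the place of Csf1r. The difference was then -1.16 for Acp5 and -2.15 for Ctsk (n = 2 against 3, two-sided exact permutation p = 0.2 for each). Over the markers taken singly it ran from -3.04 to 0.0089 for Acp5 and from -4.03 to -0.98 for Ctsk, so its size depended on the denominator. The upper ends of both ranges are those over Cd68. Cd68 and Cd14 are the 2 markers called lower, by about as much as Acp5 (log2 fold changes -1.97 and -1.89), which fixes a ratio of Acp5 to them near no difference.

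Beyond the 10 genes, 8 lists of other osteoclast genes held 74 tested genes, each counted once. Of these, 13 were called lower and 0 higher by edgeR, and the median log2 fold change was -0.54. Over all genes tested by edgeR the shares were 2.02% and 0.888%. DESeq2 called 20 of the 74 lower and 1 higher (4.42% and 4.46% of all 16230 genes with an adjusted p), and limma-voom 11 lower and 0 higher (1.63% and 0.714% of all genes tested). Without PBS replicate 1 the number called lower was 4 (1.34% of all genes tested), without replicate 1 of AF-PTK@LEV@SPP1 it was 2 (0.54%), and without replicate 2 or replicate 3 it was 0.

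The resorption machinery, which secretes acid and proteases onto bone, held the most calls. Of its 14 genes, 5 were called lower and 0 higher, 13 had a negative log2 fold change (against 45.8% of all genes tested), and the median was -1.15. Atp6v0d2, a subunit of the proton pump of osteoclasts that also takes part in fusion, stood at 75.6, 37.7 and 36.3 normalized CPM in PBS and at 11.2, 9.37 and 5.01 in the AF-PTK@LEV@SPP1-labelled libraries (log2 fold change -2.72). Mmp9, a gelatinase, stood at 1136, 852 and 859 in PBS and at 304, 351 and 290 in the other group (log2 fold change -1.66). The other called genes were Snx10 (log2 fold change -1.55), needed for the ruffled border, Tcirg1 (-1.43), another pump subunit, and the kinase Src (-1.10). For each of the 5 genes, every PBS library lay above every AF-PTK@LEV@SPP1-labelled library. The groups also did not overlap, in either direction, for 45.7% of all genes tested. The edgeR Benjamini-Hochberg adjusted p of the 5 genes ran from 0.0229 to 0.0444. Of the 8 genes of the fusion list, which shares Atp6v0d2, no other was called by edgeR, and the median log2 fold change was -0.24.

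Among 15 tested genes that carry the signal of RANK, 3 were called lower and 0 higher, and the median log2 fold change was -0.25. Called were Relb (-1.49) and Nfkb2 (-1.001), the subunits of the slower, non-canonical branch of NF-κB, and Fosl2 (-1.26), a subunit of AP-1. Nfkb2 only just passed the cut of 1 in log2 fold change. With upper quartile normalization or a minimum count of 50, this list had 2 calls. Relb stood at 13.0, 13.7 and 15.9 normalized CPM in PBS and at 4.58, 4.81 and 5.41 in the AF-PTK@LEV@SPP1-labelled libraries. Its groups did not overlap, which was also true of 45.7% of all genes tested. Of 9 transcription factors that favour osteoclasts, 2 were called lower and 0 higher, and the median was -0.90. Prdm1, which represses inhibitors of NFATc1, stood at 35.3, 23.2 and 22.5 in PBS and at 6.13, 8.34 and 6.10 in the other group (log2 fold change -2.08). Jdp2, a partner of AP-1, had a log2 fold change of -1.37. The edgeR Benjamini-Hochberg adjusted p of these 5 genes ran from 0.0255 to 0.0419.

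Other genes hold osteoclast formation back. Of 9 such genes, edgeR called 3 lower and 0 higher, and the median log2 fold change was -0.32. Among them were Tnfaip3 (-1.51) and Nfkbia (-1.30), brakes on NF-κB that NF-κB itself induces. Tnfaip3 stood at 38.1, 38.5 and 38.1 normalized CPM in PBS and at 11.96, 15.3 and 13.0 in the AF-PTK@LEV@SPP1-labelled libraries. The spread was small between PBS replicate 1 and the near-identical pair, and among the AF-PTK@LEV@SPP1-labelled libraries. The edgeR Benjamini-Hochberg adjusted p was 0.0196 for Tnfaip3 and 0.0155 for Nfkbia.

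The remaining lists had no call by edgeR. Of 9 genes of the immunoreceptor (ITAM) pathway that co-stimulates RANK, 4 had an unadjusted p under 0.05 (against 25.4% of all genes tested), DESeq2 called 2 lower and limma-voom 0, and the median log2 fold change was -0.50. The largest changes were those of Siglec15 (-2.06, edgeR's Benjamini-Hochberg adjusted p = 0.0785) and Trem2 (-1.39, adjusted p = 0.0699), receptors that signal through this pathway. Of 3 genes of the M-CSF axis, 2 had an unadjusted p under 0.05 and none was called by DESeq2 or limma-voom. Csf1r had a log2 fold change of -0.96 and Csf1, its ligand, of -0.46. Of 8 partners and regulators of RANKL and OPG, 3 had an unadjusted p under 0.05, DESeq2 called 1 higher and limma-voom 0, and the median was -0.029. Tnfsf10, the gene of the ligand TRAIL, which OPG also binds, had a log2 fold change of 1.78, and Sdc1, a heparan sulfate proteoglycan, of -0.85.

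**Figure D4:**
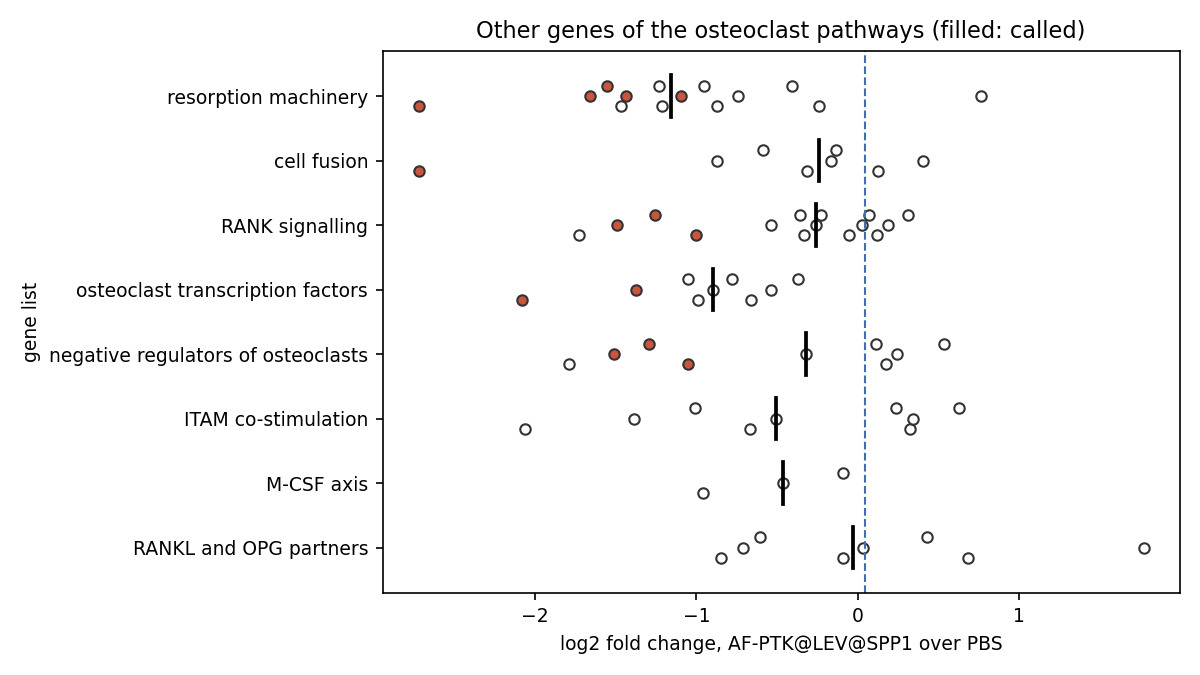
Log2 fold change, AF-PTK@LEV@SPP1 over PBS, of each tested gene in 8 lists of osteoclast genes outside the 10, with filled points for called genes, a black bar at each list's median and a dashed line at the median of all genes tested (0.046). The called genes all lie below 0, and the lowest median is that of the resorption machinery (-1.15).

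Genes whose levels followed the osteoclast genes most closely were looked for over the 5 distinct samples, by Pearson correlation of log2 CPM with the mean of the standardised log2 CPM (mean 0, SD 1) of the 6 genes Acp5, Ctsk, Calcr, Oscar, Ocstamp and Dcstamp. The 10 closest were Tomm70, Parp12, Clcn7, Dgki, Agps, Metrnl, Gusb, LOC108349532, ENSRNOG00000062438 and Ctdp1, with r from 0.995 to 0.999. Of 13031 genes compared, 343 (2.63%) had r over 0.95, so that a high r over 5 samples is not rare. Clcn7 is the chloride transporter of the osteoclast's acid-secreting membrane, and Gusb is a lysosomal enzyme. Gusb stood at 179, 119 and 119 normalized CPM in PBS and at 55.4, 70.3 and 56.1 in the AF-PTK@LEV@SPP1-labelled libraries. Gusb and Dgki were called lower (log2 fold changes -1.30 and -2.38). The others of the 10 were not called, with log2 fold changes from -0.95 (Clcn7) to -0.22 (Agps), and -0.26 for Tomm70, the closest. The mean over the 6 genes was 1.29 in PBS replicate 1, 0.64 in the summed pair, and -0.82, -0.25 and -0.86 in replicates 1, 2 and 3 of AF-PTK@LEV@SPP1.

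Markers of other cells that a dissected disc can hold were measured alongside. The gene said to have the most reads of a list is that with the highest normalized CPM, not per length, on average over the 6 libraries. For Ibsp, Lck, S100a9, Adipoq and Acta1 this does not hold in every library. Of 9 osteoblast and osteocyte genes, 0 were called by edgeR, DESeq2 or limma-voom, and 0 had an unadjusted p under 0.05. The log2 fold change was negative for 6 of the 9 (against 45.8% of all genes tested), with a median of -0.35. Their summed level was 4932, 1900 and 1895 normalized CPM in replicates 1, 2 and 3 of PBS, and 2388, 3369 and 1971 in the AF-PTK@LEV@SPP1-labelled libraries, with the most reads from Ibsp and none at 0. Ibsp, the gene of bone sialoprotein, stood at 2851, 1533 and 1513 in PBS and at 1074, 1502 and 658 in the other group, without overlap (log2 fold change -1.02, edgeR's Benjamini-Hochberg adjusted p = 0.225). Bglap, the gene of osteocalcin, differed from most of the list in sign, at 633, 12.3 and 12.9 in PBS against 574, 881 and 765. The part of osteoblasts in the levels of the 10 genes was not tested.

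Macrophage and monocyte markers were lower in part. Of 13 tested, 2 were called lower and 0 higher, 12 had a negative log2 fold change (against 45.8% of all genes tested), and the median was -0.75. An unadjusted p under 0.05 was found for 5 (against 25.4% of all genes tested), and DESeq2 and limma-voom each called 2 lower. Their summed level was 3277, 2227 and 2207 normalized CPM in replicates 1, 2 and 3 of PBS, and 765, 2052 and 2061 in replicates 1, 2 and 3 of AF-PTK@LEV@SPP1. Lyz2 had the most reads, at 1857, 1293 and 1270 in PBS and at 275, 1253 and 1415 in the other group. The sum therefore reflects this gene more than any other of the list. Marco was at 0 in every library. The called genes were Cd68, a lysosomal protein that osteoclasts also carry, at 152, 114 and 118 in PBS against 28.9, 42.5 and 31.2, and Cd14, at 154, 136 and 136 against 38.6, 36.4 and 41.9. Csf1r is in this list too. T cells can make RANKL, and of their 5 tested markers, 1, Cd8a, was called lower (log2 fold change -2.19). An unadjusted p under 0.05 was found for 4 of the 5 (against 25.4% of all genes tested), and DESeq2 called 3 lower and limma-voom 1. The summed T cell level was 16.1, 17.1 and 17.0 in PBS and 6.84, 9.43 and 10.1 in the AF-PTK@LEV@SPP1-labelled libraries, with the most reads from Lck and none at 0. The part of macrophages and T cells in the lower osteoclast and RANKL transcripts was not tested.

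Markers of blood, marrow, fat and muscle varied widely between libraries, and edgeR called none of them. Summed neutrophil markers were 1218, 198 and 185 normalized CPM in PBS and 319, 3131 and 4243 in the AF-PTK@LEV@SPP1-labelled libraries, with the most reads from S100a9 and with Ltf at or under 3 counts in every library. Summed erythroid markers, with the most reads from Hba-a1, were 2425, 3253 and 3338 in PBS and 2538, 20766 and 14247 in the other group. Summed B cell markers, with the most reads from Cd79a, were 43.5, 5.06 and 3.79 against 22.9, 59.7 and 94.0. Fat cell markers, with the most reads from Adipoq, summed to 306, 46.2 and 44.2 against 676, 1171 and 484, and muscle markers, with the most reads from Acta1, to 859, 1141 and 1159 against 858, 9055 and 2304. By unadjusted p under 0.05 (against 25.4% of all genes tested) the numbers were 0 of 9 for neutrophil, 1 of 7 for erythroid, 1 of 6 for B cell, 4 of 7 for fat cell and 0 of 6 for muscle markers. DESeq2 called 0, 3, 1, 4 and 0 of these higher, and limma-voom 0 in each list.

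Disc, cartilage and vessel markers had no call by edgeR or limma-voom. Notochord markers, with the most reads from Cd24 and Noto at 0, summed to 765, 330 and 322 normalized CPM in PBS and to 4270, 1515 and 1801 in the AF-PTK@LEV@SPP1-labelled libraries. Of 5 tested, 4 had an unadjusted p under 0.05 (against 25.4% of all genes tested), and DESeq2 called 4 higher. Annulus and tendon markers, with the most reads from Col1a1, summed to 54403, 75812 and 76524 against 115596, 81737 and 97581, and chondrocyte markers, with the most reads from Col2a1, to 21209, 31843 and 31646 against 38350, 27259 and 43019. Of 7 each, 1 and 2 had an unadjusted p under 0.05 (against the same 25.4%), and DESeq2 called 1 higher and 1 lower. Endothelial markers, with the most reads from Pecam1, summed to 505, 613 and 596 against 380, 442 and 439, with an unadjusted p under 0.05 for 3 of 6 (against 25.4%) and 0 called by DESeq2. Marker levels of several cell types thus differed between libraries, and their part in the levels of the 10 genes was not tested.

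The promoter table used here, made from RefSeq starts on the rat build GRCr8, held sequence for 6 of the 10 genes, at 7 transcription starts, and none for Dcstamp, Nfatc1, Tnfrsf11a and Tnfrsf11b. The 250 bases before each start are shown for Acp5, Ctsk and Tnfsf11, the called genes in the table, because these 3 fell together. Letters known from factors of osteoclast genes were searched on both strands, namely GGAAA (the core bound by NFAT), TGANTCA (AP-1), GAGGAA (PU.1) and TCANGTG (MITF), where N is any base. The first can overlap the third where TTTCCTC or GAGGAAA occurs. Matches are in capitals, each sequence runs 5′ to 3′ on the strand of its gene, and a match is a description and not a binding site.
Acp5, chr8:28943930-28944179, minus strand: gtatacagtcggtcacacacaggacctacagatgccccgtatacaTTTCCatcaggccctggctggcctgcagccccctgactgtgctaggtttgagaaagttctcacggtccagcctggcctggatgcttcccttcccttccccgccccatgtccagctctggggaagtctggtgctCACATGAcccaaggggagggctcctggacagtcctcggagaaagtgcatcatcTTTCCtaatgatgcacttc
Ctsk, chr2:185747298-185747547, plus strand: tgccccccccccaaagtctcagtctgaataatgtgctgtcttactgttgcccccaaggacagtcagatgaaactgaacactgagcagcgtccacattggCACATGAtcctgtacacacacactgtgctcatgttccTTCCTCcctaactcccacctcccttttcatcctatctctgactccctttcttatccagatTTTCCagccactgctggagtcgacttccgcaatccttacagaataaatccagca
Tnfsf11, chr15:60114480-60114729, minus strand: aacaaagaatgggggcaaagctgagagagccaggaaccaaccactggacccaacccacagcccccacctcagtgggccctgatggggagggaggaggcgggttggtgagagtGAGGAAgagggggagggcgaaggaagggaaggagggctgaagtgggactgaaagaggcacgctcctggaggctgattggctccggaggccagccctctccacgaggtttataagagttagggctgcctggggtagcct

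The Acp5 window shown, that of the downstream of its 2 listed starts, holds the NFAT core in the form TTTCC at 2 places and the MITF letters as CACATGA, and the window of the other start holds none of the letters searched. The Ctsk window holds the same CACATGA, 1 NFAT core as TTTCC and the PU.1 letters as TTCCTC. The Tnfsf11 window holds GAGGAA and none of the others. Among the windows of Oscar, Ocstamp and Calcr, which are not shown, those of Oscar and Ocstamp hold the NFAT core and that of Calcr none of the letters. Of all 33469 promoter windows of the same length, 56.9% hold the NFAT core, 23.3% the PU.1 letters, 11.5% the MITF letters and 6.34% the AP-1 letters. The last were in 0 of the 7 windows of these genes.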

How the data were processed

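The authors deposited counts, the number of reads per Ensembl rat gene and library, without normalization. The submitters' processing notes name FastQC, Trimmomatic, HISAT2, featureCounts, DESeq2 and the mouse build mm10, without versions, although the gene identifiers are those of rat. The build behind the table and how strand and shared reads were handled are not given in the sources used here. Columns were tied to the control samples through the paper's name for the PBS group and the number in the title. The table held no comparison columns.

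Counts were analysed with edgeR 4.0.16 in R 4.3.3 (TMM, filterByExpr with a minimum count of 10, quasi-likelihood test, Benjamini-Hochberg adjustment over all genes tested), with PBS replicates 2 and 3 summed. Ratios used a prior count of 2. Scripts were tested on simulated data. DESeq2 1.42.0, limma 3.58.1, other normalizations and filters, a robust fit, a block for the replicate number, the 6 libraries kept and each library left out were alternatives.

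The 10 genes and the 8 pathway and 12 marker lists were chosen with earlier results of these data known. Named were the 10 genes, Spp1, the called genes of each pathway list (or the 2 of largest change), the gene with the highest mean normalized CPM and the called genes of each marker list, and the 10 genes most like the osteoclast genes. Bglap, Marco, Noto and Ltf were added after their values were seen, and 1 gene that the rule names is not reported here. Of 170 list entries, 166 matched a gene by name, and Cd4, Krt19, Hba-a2 and Myh1 were left out.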

Additional observations from a re-analysis of the deposited data

How the results depend on the processing

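The log2 fold changes of the 10 genes kept their sign in 160 of 160 values from the 16 alternatives that can change them. Calcr did so only just (-0.013 without PBS replicate 1). The alternatives reuse the same libraries, and leaving out PBS replicate 2 or 3 keeps the other of the near-identical pair. Their agreement, here and in the counts that follow, is therefore not independent support. Of all 18 alternatives, Tnfsf11 was called in 16, Dcstamp in 15, Acp5 and Ctsk in 13, Tnfrsf11a in 4, Ocstamp in 3, Tnfrsf11b in 2, Oscar in 1, and Calcr and Nfatc1 in 0. The ratio of RANKL to OPG differed by -5.99 to -5.04 with a library left out, that of Acp5 to Csf1r by -1.11 to -0.98 and that of Ctsk by -2.27 to -1.79. Over the mean of 13 macrophage markers, chosen after seeing the data, Acp5 differed by -1.16 and Ctsk by -2.15. Over Cd68 and Cd14, the 2 markers called lower, Acp5 differed by 0.0089 and -0.077, and Ctsk by -0.98 and -1.06.

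Of all genes, 1328 were called with the 6 libraries kept and 1442 by DESeq2, and of the 10 genes 7 and 8, and of the pathway genes 21 and 21. Scaling by library size only left 8 pathway genes. Leaving out 1 library gave 0 to 449 genes, 0 to 4 of the 10 and 0 to 13 pathway genes, and where the count was 0 (without replicate 2 or 3 of AF-PTK@LEV@SPP1), 3109 and 2699 genes had an unadjusted p under 0.05 in edgeR. Without PBS replicates 2 and 3, chosen after seeing the data, 3 genes were called, 1 of the 10 and 0 pathway genes, and the log2 fold change of Spp1 was -0.066. Fits that left out a distinct sample held fewer samples, and the cause of their smaller counts was not tested.

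With the replicate block on the 6 libraries, 600 genes were called, with 5 of the 10 and 15 pathway genes. Same-numbered libraries had correlations of -0.324, -0.280 and -0.076 between their deviations from the group means, so the numbers are not shown to pair the rats.

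The 12 to 48 counts of Ocstamp and Calcr in the AF-PTK@LEV@SPP1-labelled libraries limit the precision of both genes, and 2 against 3 samples that of every call.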
